A study of Drosophila melanogaster with 75 samples.

Results

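Glial genes were followed in the heads of *Drosophila melanogaster* males after mating and after courtship. The set held 9 listed genes, *gcm*, *repo*, *moody*, *nrv2*, *wrapper*, *Gat*, *Gs2*, *alrm* and *Eaat1*, and a member was a gene to which the annotation of the array gave a probe set of its own. By that rule 8 of the 9 genes had 1 probe set each, out of 11982 genes with a probe set of their own and 18769 probe sets other than controls, and *Eaat1* was not analysed here. The genes were listed by their known role in glia. The suffixes of the probe set names say that those of *nrv2* and *Gat* (1625215_s_at and 1633033_s_at) may detect several related transcripts and that the one of *Gs2* (1630653_a_at) detects several transcripts of its gene. Those of *gcm* (1631126_at), *repo* (1625431_at), *moody* (1633112_at), *wrapper* (1622923_at) and *alrm* (1629996_at) were, by their suffix, designed for 1 transcript. Whether they detect other forms too was not tested.

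RNA came from 15 pools of 30 male heads, each hybridized to its own *Drosophila* Genome 2.0 array, with 5 pools in each of 3 groups. All males were of an isogenized *Canton-S* line and started as virgins, were raised in groups, spent the last day before the test in single vials and were 5 days old when tested. Mated males had been given a virgin female and were collected 2 hrs after copulation, courted males had been placed with a virgin female that was cauterized, and control males had been given no female. The labels give a treatment time of 2 hrs for all 3 groups. Since all males were of 1 isogenized line and were mixed in pools, the p-values below measure the spread between pools of that line, and the number of arrays limits the precision.

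Glia are the supporting cells of the nervous system. In the fly they form the barrier between brain and blood, wrap the cell bodies and axons of neurons, remove dying cells, and take up the transmitters glutamate and GABA after release. In the fly embryo the transcription factor Gcm starts the glial program, and its target Repo, a homeodomain protein, is made in nearly all glia outside the midline and is the standard marker of the class. The receptor Moody acts in the surface glia that seal the brain. The sodium pump subunit Nrv2 and the cell surface protein Wrapper are found in glia that enclose neurons, and the astrocyte-like glia that enter the neuropil carry the GABA transporter Gat, the glutamine synthetase Gs2 and the leucine-rich repeat protein Alrm.

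Intensities are those of the GC-RMA algorithm in R/Bioconductor, on a linear scale with no unit, unless dChip PM or MAS5.0, which were 2 other algorithms run on the same arrays, is named. A probe set was tested when its mean intensity over the compared arrays was above 100, and it was called when the adjusted p of limma was under 0.05 over all probe sets tested. Of the 8 members with a probe set, 7 were above that threshold and *gcm* was not. The levels of the 7 genes came from whole heads. In such RNA the number of glial cells, the RNA per glial cell and RNA of these genes from other cells cannot be told apart. Intensities of different genes depend on their probes and are not set against each other.

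A pair of arrays stood apart. The array of courted replicate 4 had a median correlation with the others of 0.973, against 0.984 to 0.992 for the other 14 arrays, and the lowest median MAS5.0 intensity, 43.1, against 50.3 to 64.5. The values of control replicate 3 deviated most from the probe set medians after those of courted replicate 4, with an interquartile range of 0.24 on the log2 scale, against 0.27 for courted replicate 4 and 0.08 to 0.17 for the other 13 arrays. Values without these arrays are given for the results that rest on them most. Markers of the other cells of a head were present: all 7 photoreceptor genes and all 8 haemocyte genes with a probe set had means above 100, as did 6 of 7 fat body genes and 5 of 7 muscle genes. Of 8 neuronal genes, each read by the brightest probe set of its own, 5 were above 100, and the defining neuronal markers *elav*, *brp* and *para* were not.

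*gcm* encodes the master regulator of embryonic glia. Its GC-RMA intensity was 5.72 to 5.93 in mated pools, 5.69 to 5.81 in courted pools and 5.70 to 5.97 in control pools. These values lie below the median probe set of every array, which was between 7.76 and 8.39, so a difference in *gcm* was not detectable here. Its paralog *gcm2* also lay below those medians, between 4.96 and 5.16 over all arrays. In the dChip PM data, where the threshold is 50, *gcm* was at 56.1 to 87.2 and so entered the fit, but this is also below the median of every array, which was between 129 and 161, and it was not called.

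*repo*, the glial identity gene, had intensities of 775, 853, 838, 851 and 775 in the 5 mated pools, 679, 761, 783, 822 and 760 in the 5 courted pools and 776, 773, 761, 769 and 780 in the 5 control pools. The control pools lay close together, 3 mated pools stood above all of them, and the remaining pair of mated pools lay inside the control range. *repo* averaged 818 ± 40.0 in mated, 761 ± 52.5 in courted and 772 ± 7.32 in control male heads (SD, n = 5 each). The log2 fold change was 0.08 in mated against control males (SE 0.05, 95% CI -0.03 to 0.20, adjusted p = 0.569 in limma) and 0.11 in mated against courted males (SE 0.05, 95% CI -0.01 to 0.22, adjusted p = 0.982 in limma). Neither passed the threshold, and the groups overlapped in both comparisons.

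*moody*, the receptor of the surface glia, differed little between groups. Its intensity ranged from 2950 to 3568 in mated pools, 3070 to 3522 in courted pools and 3257 to 3611 in control pools, and the 3 ranges overlapped over most of their width. Its log2 fold change was -0.04 in mated against control males, with a 95% CI of -0.17 to 0.09. A change of *moody* beyond 0.892-fold or 1.06-fold lies outside that interval.

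*nrv2* encodes a beta subunit of the sodium pump that is used as a marker of glia. Its intensities were 6682, 6371, 7584, 7274 and 6031 in mated pools, 6919, 6449, 7105, 6487 and 5877 in courted pools and 6719, 4860, 6470, 6169 and 6218 in control pools. One control pool, replicate 2, was well below all other pools, and the rest of the 3 groups overlapped. The log2 fold change in mated against control males was 0.16 (SE 0.07, 95% CI -0.01 to 0.33, adjusted p = 0.522 in limma), and *nrv2* was higher in 3 of 5 pairs of pools. Without the pair of replicate 2 it was 0.10. The dChip PM data gave 0.04 (SE 0.05) and the MAS5.0 data 0.14 (SE 0.10).

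The other beta subunits of the pump gave a comparison within the family. *nrv1*, which is expressed more broadly, had 4904, 4834, 5781, 5368 and 4973 in mated pools, 5208, 5234, 5217, 5244 and 4853 in courted pools and 4999, 4656, 4612, 4563 and 4896 in control pools. Its log2 fold change was 0.12 in mated against control males (SE 0.06, adjusted p = 0.544 in limma) and 0.12 in courted against control males (SE 0.05, adjusted p = 0.988 in limma). In courted males 4 of the 5 pools were above every control pool, and the fifth was inside the control range. *nrv3*, the subunit of neurons, had 8463 to 10284 in mated, 7019 to 12127 in courted and 7922 to 12031 in control pools, so that the 3 ranges overlapped, and its mated minus control difference was 0.04 (SE 0.07).

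*wrapper*, an immunoglobulin-family protein of glia that ensheathe neurons, had the smallest SD of the 7 tested members among mated pools, 0.04 on the log2 scale. It ranged from 867 to 928 in mated pools, 745 to 903 in courted pools and 834 to 891 in control pools. The single low value was courted replicate 5, and the other 14 pools spanned 834 to 928. The log2 fold change was 0.04 in mated against control males (SE 0.04, 95% CI -0.06 to 0.14) and 0.07 in mated against courted males (SE 0.06).

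*Gat*, the transporter that removes GABA into astrocyte-like glia, had the highest fold change of the members in mated against control males. Its intensities were 934, 979, 1432, 974 and 983 in mated pools, 750, 1269, 1072, 648 and 1081 in courted pools and 840, 791, 1037, 797 and 972 in control pools. Mated replicate 3 was far above the other mated pools, which lay close together at 934 to 983, and 3 of the 5 control pools were below every mated pool, while the other 2 lay among them. *Gat* was higher in the mated pool of all 5 pairs, with differences between 0.02 and 0.47 on the log2 scale. The mean intensity was 1061 ± 209 in mated and 887 ± 111 in control male heads (SD, n = 5 each), a 1.19-fold difference with a 95% CI of 1.06 to 1.33. The unadjusted p was 0.00813 and the adjusted p was 0.400 in limma, so *Gat* was not called. Without the pair of replicate 3 the log2 fold change was 0.19, against 0.25 with it.

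The 3 algorithms gave the same direction for *Gat*. In the dChip PM data the mated pools had 818, 879, 1116, 846 and 848 and the control pools 770, 689, 810, 725 and 807, and here the groups did not overlap, which in the dChip PM data held for 0.622% of the probe sets in that direction. The log2 fold change was 0.24 (SE 0.07, adjusted p = 0.401 in limma) in dChip PM and 0.17 (SE 0.07, adjusted p = 0.634 in limma) in MAS5.0, where the groups overlapped. All 5 pairs were higher in mated males in both data sets.

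*Gs2*, the glutamine synthetase that converts glutamate taken up by glia, had intensities of 10484, 10256, 11683, 10778 and 10137 in mated pools, 9675, 10849, 10241, 8330 and 10351 in courted pools and 10030, 9176, 9121, 9751 and 9545 in control pools. Every mated pool was above every control pool, and the courted pools spread over both ranges and below them. *Gs2* averaged 10667 ± 618 in mated and 9524 ± 385 in control male heads (SD, n = 5 each), which is a 1.12-fold difference with a 95% CI of 1.02 to 1.22. The unadjusted p was 0.0202 and the adjusted p was 0.495 in limma, so *Gs2* was not called either. Without the pair of replicate 3 the log2 fold change was 0.11, against 0.16 with it. Groups that did not overlap and were higher in mated males were found for 0.433% of the probe sets tested, and for 1 of the 7 members.

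The gap between mated and control pools in *Gs2* depended on the algorithm. With dChip PM the mated pools had 6420, 6045, 6588, 6214 and 6201 and the control pools 6520, 5415, 5164, 5447 and 5417, so that control replicate 1 was above 4 of the 5 mated pools. The log2 fold change was 0.17 in dChip PM (SE 0.06, adjusted p = 0.438 in limma) and 0.16 in MAS5.0 (SE 0.08, adjusted p = 0.678 in limma), each with 4 of 5 pairs higher. *Gs1*, which encodes the mitochondrial glutamine synthetase, was at 5977 to 7170 in mated and 6184 to 7237 in control pools, and its log2 fold change was -0.02 (SE 0.06, 95% CI -0.15 to 0.11).

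*alrm*, the astrocyte marker, had intensities of 4366, 4994, 5967, 4334 and 4396 in mated pools, 4028, 4983, 5470, 4084 and 4628 in courted pools and 5198, 4452, 5174, 4155 and 4097 in control pools. The pools of replicate 3 were the highest or second highest of each group and those of replicate 4 the lowest or second lowest, while the group ranges overlapped. The mated pool was higher in 4 of 5 pairs, by 0.06 to 0.21 on the log2 scale, and the pair of replicate 1 was at -0.25. The log2 fold change was 0.06 in mated against control males (SE 0.07, 95% CI -0.11 to 0.22, 0.13 without the pair of replicate 1 and 0.02 without that of replicate 3), 0.01 in courted against control males (SE 0.09) and 0.05 in mated against courted males (SE 0.05). *Eaat2*, a paralog of the glial glutamate transporter gene *Eaat1*, had a mean of 8757 ± 250 in mated, 8748 ± 484 in courted and 8386 ± 297 in control male heads (SD, n = 5 each). Its mated minus control difference was 0.06 on the log2 scale (SE 0.05). It was 0.04 in MAS5.0 (SE 0.07, adjusted p = 0.895 in limma), 0.11 in dChip PM (SE 0.05, adjusted p = 0.540 in limma) and 0.14 in dChip PM-MM (SE 0.05, adjusted p = 0.471 in limma).

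**Figure D1:**
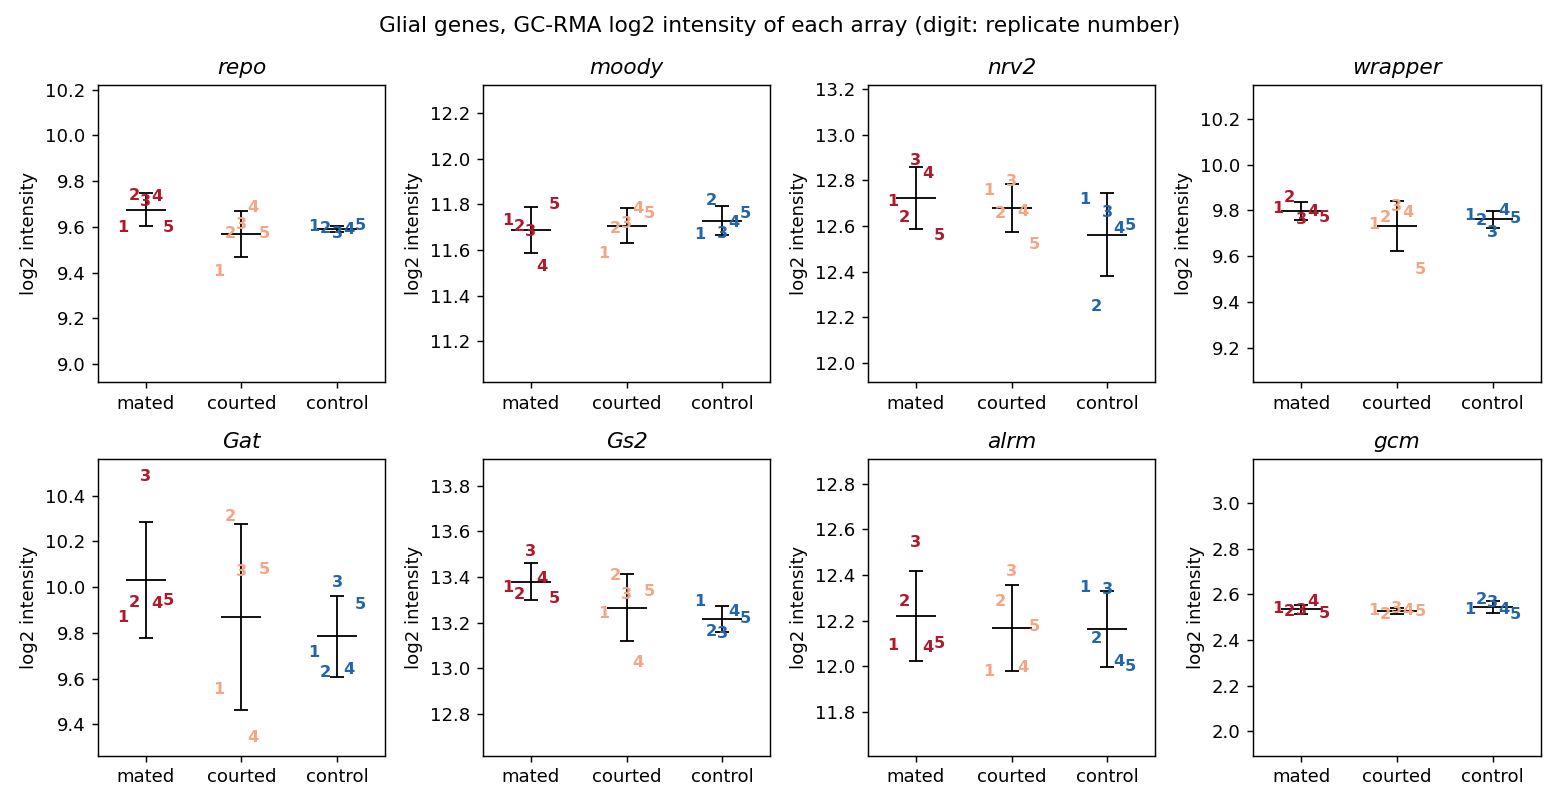
GC-RMA log2 intensity of the 8 glial genes with a probe set, with mated, courted and control male heads from left to right in each panel. Each digit is 1 array and gives its replicate number, the horizontal mark is the group mean and the bar its SD (n = 5), and all panels span the same height in log2 units. Mated pools lie above all control pools in *Gs2*, *Gat* of mated replicate 3 stands apart at 10.48, and *gcm* lies between 2.51 and 2.58 in every pool.

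The comparison of mated with control males asked which genes differed 2 hrs after copulation. Limma called 0 of the 7 tested glial genes and 0 of 7621 probe sets (0.00%), and the lowest adjusted p of any probe set was 0.101. At an unadjusted p under 0.05 there were 731 probe sets (9.59%), of which 285 were higher in mated males (3.74%) and 446 lower. Among them were 2 of the 7 glial genes, *Gat* and *Gs2*, both higher. A positive log2 fold change was found for 6 of the 7, all but *moody*, against 42.9% of all probe sets tested, and the median was 0.08 for the 7 genes and -0.01 for all probe sets. In dChip PM, where *gcm* also entered the fit, the medians were 0.03 for 8 members and 0.01 for all probe sets. Of the 7 genes alone, *nrv2* was the middle one there, at 0.04. When a replicate was left out in the GC-RMA data, the median of the 7 genes was 0.07 to 0.13. Higher in all 5 pairs were again *Gat* and *Gs2*, 2 of 7 members against 3.57% of the probe sets. These counts describe a short list and carry no test of their own.

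**Figure D2:**
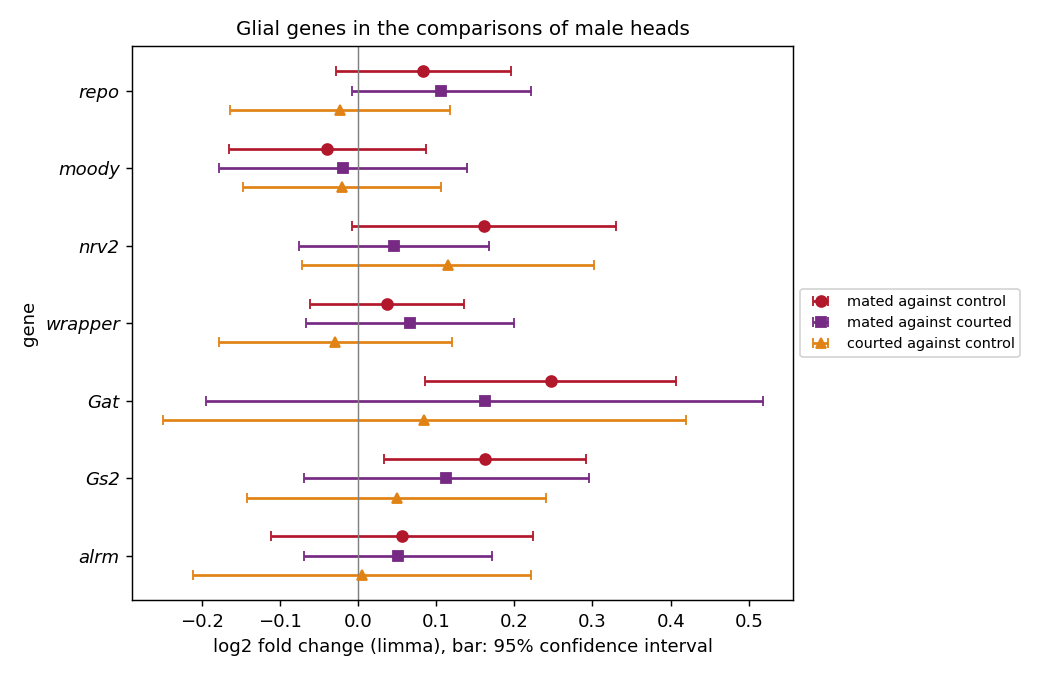
Log2 fold changes of the 7 tested glial genes from limma on GC-RMA values, with bars for the 95% confidence interval (5 arrays a group). Circles show mated against control, squares mated against courted and triangles courted against control males. Only the intervals of *Gat* and *Gs2* in mated against control males lie wholly above 0, and neither gene had an adjusted p under 0.05.

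**Figure D3:**
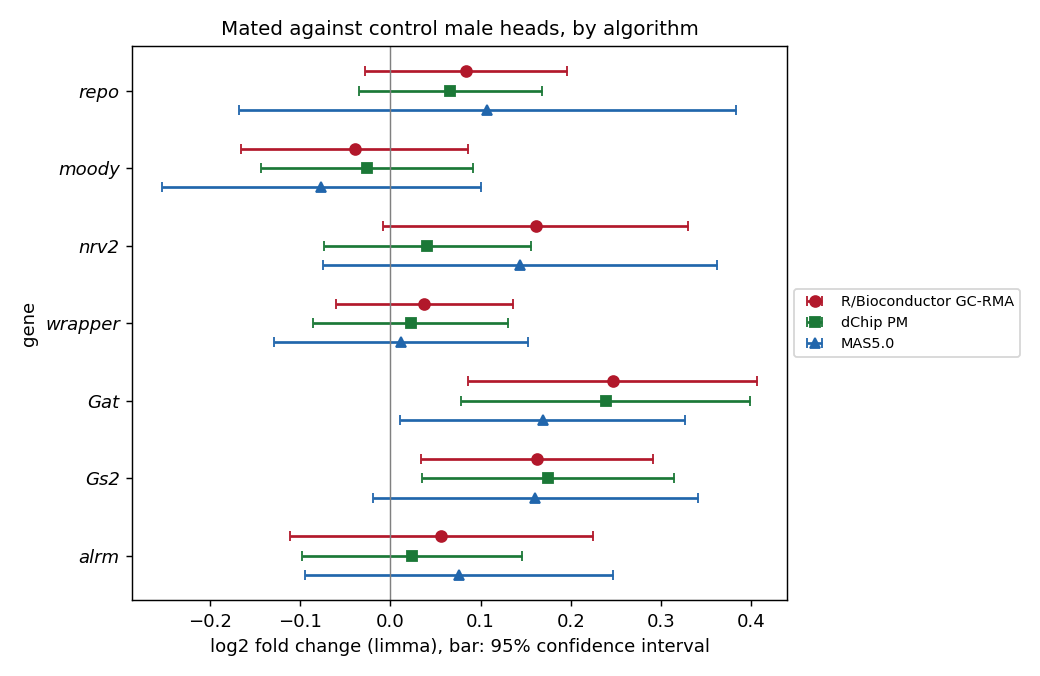
Log2 fold changes of the 7 glial genes in mated against control male heads from 3 algorithms run on the same arrays, with 95% confidence intervals from limma (5 arrays a group). *Gat* is between 0.17 and 0.25 and *Gs2* between 0.16 and 0.17 in all 3, while *nrv2* is 0.16 in GC-RMA and 0.04 in dChip PM.

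Markers of other cells were read in the same fit. Of the 8 haemocyte genes, 7 had a positive log2 fold change in mated against control males (median 0.09), and their summed intensity was 9761 to 11776 in mated and 8742 to 10587 in control pools. Of the neuronal genes tested, 3 of 5 were positive (median 0.05), as were 3 of 7 photoreceptor genes (median -0.01), 4 of 6 fat body genes (median 0.04) and 3 of 5 muscle genes (median 0.01). The summed intensity of the 8 glial genes was 26767 to 31663 in mated and 24533 to 27704 in control pools, which overlap. Such sums weigh the brightest probe sets most, here *Gs2* and *nrv2*, and are not a level of the RNA of a cell type. No marker of these lists was called, and their part in the values of the glial genes was not tested.

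Courted males were compared with control males to separate exposure to a female from copulation. None of the 7 glial genes was called, as 0 of 7637 probe sets (0.00%) passed, and 0 of the 7 had an unadjusted p under 0.05, against 252 probe sets (3.30%). A positive log2 fold change was found for 4 of 7 glial genes, against 51.5% of all probe sets, and the medians were 0.01 and 0.00. Without courted replicate 4 and without the replicate number in the fit, 4 of 7 were again positive, with a median of 0.05. The values were 0.12 for *nrv2* (SE 0.08), 0.08 for *Gat* (SE 0.14), 0.05 for *Gs2* (SE 0.08) and between -0.03 and 0.01 for the other 4. The dChip PM data gave 0.15 for *Gs2* (SE 0.06, unadjusted p = 0.0355, adjusted p = 0.847 in limma), while the MAS5.0 data gave 0.03.

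*Gat* spread most widely in courted males, between 648 and 1269, and the 95% CI of its courted against control difference ran from -0.25 to 0.42 on the log2 scale. The lowest *Gat* and *Gs2* values of all 15 arrays were those of courted replicate 4, the array least like the others. Without the arrays of that number, *Gat* was 0.18 and *Gs2* was 0.12 in courted against control males, and without those of number 2, *Gat* was -0.06. Neither call changed, since every adjusted p was above 0.05. The labels give courted pools the same replicate numbers and pool letters, and the treatment text says that a male of each group was collected together. The deviations of courted pools still did not follow those of the other groups number by number, so counts of pairs are not given for them. The replicate number was still a term of the fit, and without it 0 probe sets were called as well.

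Mated males were compared with courted males to ask how males after copulation differed from males after courtship. The females differed too, since those of courted males were cauterized, and these differences cannot be told apart. Of the 7 glial genes 0 were called, as were 0 of 7636 probe sets (0.00%), and 0 of the 7 had an unadjusted p under 0.05, against 257 probe sets (3.37%). A positive log2 fold change was found for 6 of the 7, against 39.7% of all probe sets, with medians of 0.07 and -0.02. In dChip PM the median was 0.03 for the members, with *gcm* among them, and 0.03 for all probe sets, so the members did not stand above the rest there. Without the replicate number in the fit, 3 probe sets were called, none of them a member. *Gat* was at 0.16 (SE 0.15, 95% CI -0.19 to 0.52), *Gs2* at 0.11 (SE 0.08, 95% CI -0.07 to 0.30) and *moody* at -0.02 (SE 0.07). Without courted replicate 4 and without the replicate number in the fit, *Gat* was 0.03 and *Gs2* 0.05, while *repo* was 0.14 (SE 0.06). None of the 3 was called, and 7 of the 7 members were positive, with a median of 0.04. Since the 3 comparisons share arrays, their values for a gene are not independent of each other.

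The members differed in how much they varied and with what. Over the 15 arrays the highest intensity was 2.21 times the lowest for *Gat*, 1.56 times for *nrv2*, 1.48 times for *alrm*, 1.40 times for *Gs2*, 1.26 times for *repo*, 1.24 times for *wrapper* and 1.22 times for *moody*. The replicate number accounted for 69.2% of the variance of *alrm*, 49.9% of *Gat* and 48.0% of *nrv2*, and for 9.19% of *Gs2*, with a median of 33.9% over all probe sets above the threshold. The group accounted for 35.4% of *Gs2* and 33.6% of *repo*, and for 2.31% of *alrm*, with a median of 10.7%. If values varied at random, the number would take 28.6% and the group 14.3% on average, given their degrees of freedom.

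Members were also set against each other over the 15 arrays, as deviations from their group means. Of 21 pairs of genes, 3 had an adjusted p under 0.05 for Pearson's r (permutation of arrays within groups, two-sided, adjusted over the 21 pairs). *Gat* and *Gs2* had r = 0.77 (permutation p = 0.00684, adjusted p = 0.0479) and rho = 0.58 (permutation p = 0.0446, adjusted p = 0.312). *Gat* and *alrm* had r = 0.72 (permutation p = 0.00671, adjusted p = 0.0479) and rho = 0.76 (permutation p = 0.00559, adjusted p = 0.0892). *moody* and *nrv2* went in opposite directions, with r = -0.69 (permutation p = 0.0046, adjusted p = 0.0479) and rho = -0.70 (permutation p = 0.0085, adjusted p = 0.0892). None of the 3 passed the adjusted threshold with ranks. Arrays were permuted in each group on its own, although mated and control pools of a number, and courted ones by the treatment text, were collected together. The p-values therefore do not allow for deviations that such pools share.

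The relations of *Gat* with *Gs2* and with *alrm* rested partly on single arrays. With any 1 array left out, r was 0.63 to 0.87 for *Gat* and *Gs2* and 0.61 to 0.81 for *Gat* and *alrm*. For *moody* and *nrv2* it stayed between -0.73 and -0.63. Without the 2 arrays farthest from the median of the first gene, r was 0.64 for *Gat* and *Gs2*, 0.61 for *Gat* and *alrm* and -0.77 for *moody* and *nrv2*. Without courted replicate 4, r was 0.63, 0.70 and -0.71 for the same pairs, and the adjusted permutation p was 0.269, 0.181 and 0.107, so no pair passed. The unadjusted permutation p of *moody* and *nrv2* was 0.00508 there, against 0.0046 with all arrays. An adjusted p also depends on the p-values of the other pairs. In dChip PM the r of *Gat* and *Gs2* was 0.24, that of *Gat* and *alrm* 0.66 and that of *moody* and *nrv2* -0.65, and no pair passed. When the means of the replicate numbers were subtracted as well, *Gat* and *Gs2* reached r = 0.90 (permutation p = 0.00023, adjusted p = 0.00483) and were the only pair that passed. Those means were taken over all 3 groups, although the courted arrays did not follow the numbers. The permutation within groups did not keep the values centred on the replicate numbers, so the permutation p of this setting may be too small. Each group held 5 arrays, too few for an r within groups.

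**Figure D4:**
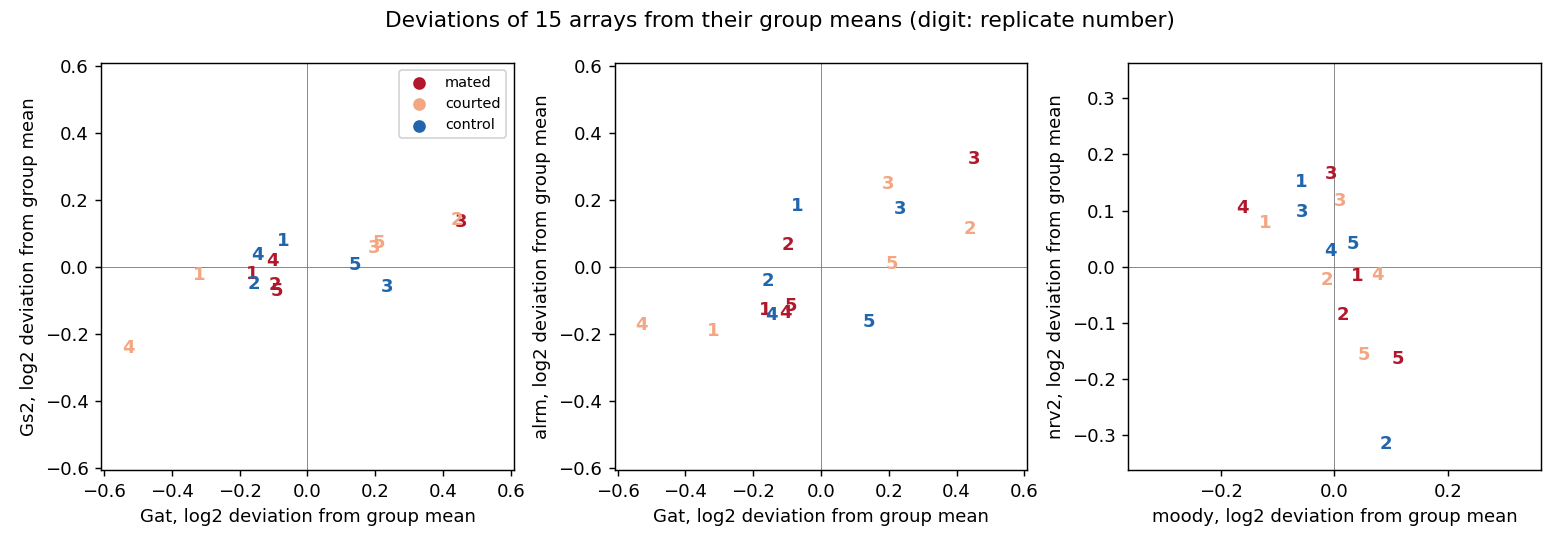
Deviation of each of the 15 arrays from its group mean in log2 intensity, for *Gs2* against *Gat*, *alrm* against *Gat* and *nrv2* against *moody*. Digits are replicate numbers, coloured by mated, courted and control males. The arrays of mated replicate 3, courted replicate 2 and courted replicate 4 lie at the ends of the *Gat* axis, and control replicate 2 is lowest in *nrv2*.

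As a description, each member was also matched to the genes outside the set whose log2 values were most like its own over the 15 arrays, among 6397 genes. *Gat* was nearest to *CG9512* (r = 0.92), *Ntan1* (0.91) and *Tmem214* (0.89), and *alrm* to *Scp2* (0.94), *CG7509* (0.91) and *Cyp4g15* (0.91). *Gs2* was nearest to *CG12025* (0.85), *alpha-Man-Ia* (0.83) and *CG5758* (0.83). *nrv2* was nearest to *Ald1* (0.88), *Desat1* (0.87) and *CG7781* (0.85), and *moody* to *Fis1* (0.88), *sstn* (0.86) and *mib2* (0.85). *repo* had the neuropeptide gene *NPF* (0.81), *veg* (0.75) and *CG12116* (0.74), and *wrapper* had *Usp8* (0.78), *BomBc2* (0.78) and *CG31729* (0.76). These r values are the highest of many and share the arrays' groups, replicate numbers and quality.

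Other genes linked to glial function were read from 6 lists, which also held genes of transmitter release and transmitter receptors that are not glial markers. No gene of any list was called in any comparison. Of 17 tested genes of surface glia, septate junctions and the blood-brain barrier, 12 had a positive log2 fold change in mated against control males (median 0.01), 14 in courted against control males (median 0.06) and 6 in mated against courted males (median -0.03). *LpR2*, a lipophorin receptor, was at 0.27 in mated against control males (SE 0.07, unadjusted p = 0.00522, adjusted p = 0.374 in limma) and was higher in all 5 pairs. It was at 0.12 in mated against courted males (SE 0.05). *Nrx-IV*, the neurexin of septate junctions, was at 0.22 in courted against control males (SE 0.06, unadjusted p = 0.00939, adjusted p = 0.988 in limma), where the groups did not overlap, which held for 0.340% of the probe sets in that direction. It was at 0.14 in mated against control males (SE 0.06). *Cont*, another junction protein, was at -0.12 in mated against courted males (SE 0.05), and *Mdr65*, the drug exporter of the barrier, at -0.13 in mated against control males (SE 0.06) and at -0.02 there in MAS5.0.

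Of 7 tested glial regulators and engulfment genes, 4 were positive in mated against control males (median 0.01), 6 in courted against control males (median 0.07) and 2 in mated against courted males (median -0.04). *loco*, a regulator of G protein signalling that acts with Moody, was at -0.19 in mated against control males (SE 0.08, unadjusted p = 0.0395, adjusted p = 0.504 in limma). *Egfr*, the epidermal growth factor receptor, was at 0.20 (SE 0.09) and *ced-6*, an adaptor in engulfment, at 0.17 (SE 0.08) in the same comparison. Of the 2 sodium pump genes tested beside *nrv2*, which are *nrv1* and *nrv3*, both were positive in all 3 comparisons, and 1 of them in mated against courted males without courted replicate 4.

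Of 11 tested genes of glutamate and GABA release, uptake and turnover, 8 were positive in mated against control males (median 0.02), 9 in courted against control males (median 0.06) and 5 in mated against courted males (median -0.01). *Nmdar1*, a glutamate receptor subunit, was at 0.13 in mated against control males (SE 0.04, unadjusted p = 0.024, adjusted p = 0.495 in limma) and higher in all 5 pairs. *Gabat*, the GABA transaminase, was at 0.15 in courted against control males (SE 0.09), and at 0.06 without the arrays of number 4. Among 9 tested genes of lamina glia and amine recycling, 7 were positive in mated against control males (median 0.03), 4 in courted against control males (median -0.03) and 7 in mated against courted males (median 0.05). *Inx2*, an innexin of gap junctions, was at 0.23 (SE 0.10) and *t*, which codes for tan, the hydrolase that frees histamine and dopamine from their conjugates, at 0.18 (SE 0.07) in mated against control males.

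Of 8 tested genes of glial metabolism and lipid handling, 2 were positive in mated against control males (median -0.03), 5 in courted against control males (median 0.00) and 2 in mated against courted males (median -0.03). *Apoltp*, a lipid transfer particle protein, was at 0.16 in mated against courted males (SE 0.05, unadjusted p = 0.0136, adjusted p = 0.982 in limma) and at -0.12 in courted against control males (SE 0.05).

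The values of courted males in these lists were read again without courted replicate 4 and without the replicate number in the fit, and again no gene was called. In courted against control males *Nrx-IV* was then at 0.18, *nrv1* at 0.11 and *Apoltp* at -0.13, and in mated against courted males *Apoltp* was at 0.17, *LpR2* at 0.16 and *Cont* at -0.09. The genes positive in courted against control males were then 14 of 17 for surface glia, 6 of 7 for regulators and engulfment, 9 of 11 for glutamate and GABA, 6 of 9 for lamina glia and 3 of 8 for metabolism. In mated against courted males they were 5 of 17, 4 of 7, 5 of 11, 5 of 9 and 3 of 8 in the same order. The counts of the last 2 lists in courted against control males, and of the regulators and lamina glia in mated against courted males, moved by 2 genes with that array.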

How the data were processed

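The authors derived linear intensities per probe set from each array with 5 algorithms, which were dChip PM, dChip PM-MM, MAS5.0 (in GCOS 1.2, per the submitters' processing notes) and GC-RMA, once in R/Bioconductor and once in GeneSpring. Deposited were 75 columns, 5 for each of 15 arrays, and the 5 columns of an array stand for 1 replicate. The GeneSpring values have an empty entry at place 3092 and were moved up by 1 place from there on, after which their median correlation over the arrays with the other GC-RMA values was 0.796 (before, -0.00483).

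Intensities under 1 were set to 1 and log2 transformed without further normalization, and 183 control probe sets were left out. Of 18769 others, the annotation gave 13647 to 1 gene, 402 to several and 4720 to none. Old symbols were updated through the annotation's gene identifiers, and no genome coordinates or sequences were used. Groups were compared with limma 3.58.1 (lmFit and eBayes, two-sided) in R 4.3.3, on probe sets with a mean above 100 (50 for dChip), with a block for the replicate number. P-values were adjusted by Benjamini-Hochberg over every probe set in a fit. The methods state that mated and control samples were collected together for paired comparison. Deviations from group means of same-numbered mated and control arrays correlated at 0.33, 0.46, 0.48, 0.43 and 0.09. The submitters' treatment text says that a male of each group was collected together. The block was therefore kept in the courted comparisons too, where such correlations did not bear the pairing out. In simulated data the fit found 81 of 100 planted log2 changes of 0.5 in mated against control males. It found 64 of 100 in courted against control and 61 of 100 in mated against courted males. Changes smaller than 0.5, such as those of the members, were not simulated. Relations between genes were tested with 100000 permutations in Python 3.11.15.

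Members and lists were chosen with earlier results of these data known. Named beside the members were their paralogs, up to 4 genes of a list with the lowest p in a comparison, and the 3 genes nearest to a member. Alternatives were other algorithms, thresholds, offsets, normalization and fits, and leaving out replicates. Leaving out courted replicate 4 without the block was added after seeing the data.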

Additional observations from a re-analysis of the deposited data

Results flagged for a closer look

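Over 12 genes (members and paralogs), each in 3 groups of 5 arrays, 4 groups had 1 array that lay farther from its group than the 95% limit of Dixon's test allows, which chance gives in about 1 of 20 groups. *Gat* in mated replicate 3 was at 10.48 on the log2 scale, and the next mated array was at 9.94. *nrv2* in control replicate 2 was at 12.25, and the next control array was at 12.59. *wrapper* in courted replicate 5 was at 9.54, with the next courted array at 9.74, and *nrv1* on the same array was at 12.24, with the next at 12.35. The 2 low values of courted replicate 5 are of different genes on 1 array.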

How the results depend on the processing

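None of the 7 glial genes was called under any alternative tried. Their log2 fold changes kept direction in 358 of 371 combinations of comparison and alternative. In mated against control males their median, 0.08, was up to 0.11 in MAS5.0, and it was 0.03 in dChip PM, where *gcm* was counted too. In mated against control males, *Gat* was between 0.17 and 0.30 (adjusted p 0.256 to 0.823), *Gs2* between 0.11 and 0.19 (adjusted p 0.390 to 0.853) and *nrv2* between 0.04 and 0.21 (adjusted p 0.411 to 0.982), with no reversal of any member. Without the pair of replicate 3, which holds control replicate 3, *nrv1* was 0.07, *ced-6* 0.095, *Egfr* 0.12 and *Inx2* 0.12.

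The number of probe sets called in mated against control males, 0 in the fit reported, was 1 without the replicate block, 3 with all 15 arrays in 1 fit, 9 with limma-trend and 0 to 1 when a replicate was left out. In mated against courted males, also 0, it was 3 without the replicate block, 4 with all 15 arrays in 1 fit and 0 to 1 when a replicate was left out, and in courted against control males it stayed 0 under all alternatives run. The cause was not tested. Courted arrays carried the same numbers as control arrays, but their deviations correlated at 0.15, -0.26, 0.18, -0.31 and 0.33, and with mated arrays at 0.04, -0.45, 0.16, -0.44 and 0.01. Without the replicate block, *Gat* in mated against control males had an SE of 0.12 and an adjusted p of 0.728, against an SE of 0.07 and an adjusted p of 0.400 with it.

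The 3 relations between members past the threshold became 0 in dChip PM, 0 in MAS5.0, 0 without courted replicate 4 and 1 when the replicate-number means were subtracted too. The permutation p of that last setting may be too small.

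Small values turned in sign as follows. With MAS5.0, *wrapper* was 0.043 in courted against control and -0.031 in mated against courted males, *moody* 0.035 in mated against courted males, *Gs1* -0.011 in courted against control males, and *nrv3* -0.0053 in mated against control and -0.039 in courted against control males. *nrv3* in courted against control males was -0.0033 in dChip PM and -0.00096 in the mean of data sets, and *moody* there was 0.0064 in GeneSpring. When a replicate number, or courted replicate 4 without the block, was left out, courted against control values ran from -0.053 to 0.0195 for *repo*, -0.041 to 0.0052 for *moody*, -0.065 to 0.019 for *wrapper*, -0.065 to 0.22 for *Gat*, -0.038 to 0.098 for *alrm* and -0.11 to 0.18 for *nrv3*. Mated against control values ran from -0.0504 to 0.0303 for *Gs1* and -0.00403 to 0.11 for *nrv3*, and mated against courted values of *moody* from -0.0595 to 0.0404, with 5.6e-05 for courted replicate 4.

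With 5 pools a group, a missed threshold does not show that groups were alike.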
